A study of Mus musculus with 72 samples.

Results

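Liver RNA of male DBA2/J mice fed 40% less than controls was compared with that of male DBA2/J mice fed 20% less. The comparison held 12 of the 72 arrays of the series, 6 mice at each level of restriction and 1 array per mouse. Probes entered where at least 6 of these 12 arrays gave a detection p-value below 0.01, which left 8979 of 25697 probes and 6430 named genes. The mice were bred in house from Jackson Laboratory stock, housed in groups, and their ration was lowered in weekly steps from 6 months of age. Livers came from mice aged 23 to 24 months that had spent 17 to 18 months on the diet, and neither group had received its ration that day. Male DBA2/J mice fed ad libitum (6 arrays) ate until they were killed, so their time since the last meal differed from that of both restricted groups. DBA2/J females and C57BL/6J males and females on the same diets, 6 arrays per group, served where a difference between strains or sexes was tested. Values are levels on the log2 scale after normalization, and n is 6 per group throughout. A log2 change is the 40% mean minus the 20% mean with its standard error. That error rests on a spread pooled over all 12 groups of the series. It can be too small for genes that varied widely among these 12 arrays.

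The labels were checked against genes of known sex and strain. Xist was detected on none of the 12 arrays and Eif2s3y, a Y-linked gene, on all of them. Eif2s3y itself was higher at 40% (mean 7.30 against 6.89), past the adjusted threshold and without overlap. Hc, the complement component that differs between these strains, had a mean level of 6.74 at 20% and 6.69 at 40% restriction, against 9.56 and 9.67 in the C57BL/6J males. The hepatocyte genes Ttr and Apoa1 were bright in both groups, with means of 14.49 and 14.51 for Ttr and of 14.66 and 14.53 for Apoa1. The source names of the DBA2/J males carry the code used for females, while titles and sex entries say male. One sample at 40% restriction is DBA by title and C57 by its strain entry, and the group's Hc range of 6.44 to 7.00 left no array near the C57BL/6J level.

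The liver of male and female mice differs because growth hormone is released in pulses in males and more evenly in females, and the transcription factor STAT5B carries that pattern to the genes. Male-biased genes include the major urinary proteins, which bind pheromones, and female-biased genes include members of the Cyp2b and Cyp2a families. Caloric restriction is known to lower circulating IGF-1, which the liver makes in response to growth hormone. The same organ makes most acute phase and complement proteins of the blood.

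Between the 2 levels of restriction 1143 of 8979 probes (12.7%) passed a Benjamini-Hochberg adjusted p of 0.05 in limma. Of these, 753 probes (8.39% of those tested) were higher and 390 (4.34%) lower at 40% restriction. Changes were mostly small, since 133 of the higher and 110 of the lower probes reached 1.5-fold. At least 2-fold changes were counted for 16 higher and 40 lower probes. The 6 arrays at 40% lay wholly apart from the 6 at 20% for 408 probes (4.54%), 307 of them past the threshold. The largest rises and falls named below were picked among those 307, so their lack of overlap is part of the choice. The median log2 change over all tested probes was 0.02.

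Array brightness moved with the groups. Mean raw intensity per array ran from 135.7 to 167.4 at 20% and from 146.7 to 247.3 at 40% restriction, and the share of probes detected ran from 32.3% to 35.9% and from 35.3% to 37.3%. With the log2 mean intensity of each array as a covariate, 567 probes passed, 385 higher and 182 lower. In the authors' table of z-scores 1883 of the same probes passed, 83% of them higher, against 65.9% in the main values. Leaving out 1 array at a time gave 622 to 1374 probes, with the fewest when array 129 of the 40% group was absent, 689 without array 110 of that group, and 726 without array 59 of the 20% group. The probes detected on exactly 6 of the 12 arrays numbered 235 with a mean level of 4.92, and the 263 detected on 5, just outside the rule, had a mean of 4.86.

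Genes with higher expression in male than in female liver were lower at 40% restriction. Of 23 tested members of a male-biased list 12 fell and 1 rose, with a median log2 change of -0.96, against 4.06% of all tested genes that fell and a median of 0.03. The list was chosen with earlier results of these data known, so the excess over all genes is not independent support. Near-identical Mup genes, and Gstp1 and Gstp2, count as separate members. The genes that fell were Gstp2, Mup2, Mup6, Mup21, Susd4, C6, Selenbp2, Nat8, Cyp7b1, Gstp1, C4a and C8b. The 1 that rose was Hao2, which a female-biased list also held and which lay near background at 20%. The count was 7 without array 54 of the 20% group, 14 without array 55 and 10 with array brightness as a covariate.

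Gstp2, a pi-class glutathione S-transferase, had the largest change of any tested probe among those lower at 40%. Its level was 7.01 to 10.11 (median 8.25) at 20% and 4.94 to 6.58 (median 6.12) at 40% restriction. The groups did not overlap, and arrays 54, 56 and 59 at 20% stood near 9 to 10 while arrays 53, 55 and 57 stood near 7. The log2 change was -2.44 ± 0.32, a 5.42-fold lower level (adjusted p = 6.76e-07). That error is pooled over groups that include females, where Gstp2 lay near background. The call stood in every alternative setting, with an adjusted p of up to 0.0215. Gstp1, its close relative, changed by -1.04 ± 0.25 from a higher level (adjusted p = 0.00398). The probes of these near-identical genes may not separate them.

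Major urinary protein genes fell, with a wide spread among the 20% arrays. Mup2 lay at 7.70 to 13.79 (median 11.80) on the 20% arrays and 7.71 to 10.04 (median 8.71) on the 40% arrays. Arrays 54, 56 and 59 were higher than every 40% array, while arrays 55 and 57 were lower than the highest of them. The change of -2.41 ± 0.74 (adjusted p = 0.0222) was lost when array 54, 56, 59 or 129 was left out, with an adjusted p of up to 0.0962. Mup6 changed by -2.04 ± 0.66 (adjusted p = 0.033), Mup21 by -1.89 ± 0.58 (adjusted p = 0.0227) and Mup5 by -1.51 ± 0.52 (adjusted p = 0.0434). The Mup6 call was lost without array 54, 56, 59, 111, 129 or 154 (adjusted p up to 0.147), that of Mup21 without array 54 or 56 (up to 0.133) and that of Mup5 in 9 of the 12 fits without 1 array (up to 0.184). The one Mup20 probe was detected on 3 of the 12 arrays and was not tested. These genes are nearly identical in sequence, so a probe may report several of them.

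Susd4, a regulator of complement with sushi domains, lay at 5.47 to 8.26 (median 7.41) and 4.84 to 5.78 (median 5.46). Array 55 at 20% fell within the 40% range and the other 20% arrays lay above it. Its log2 change was -1.77 ± 0.31 (adjusted p = 1.86e-04). Selenbp2, a selenium-binding protein, lay at 9.07 to 11.07 (median 9.81) and 8.07 to 8.90 (median 8.65) without overlap, a change of -1.35 ± 0.24 (adjusted p = 2.11e-04). Cyp7b1, which hydroxylates oxysterols and steroids, changed by -1.06 ± 0.28 (adjusted p = 0.00856), and the call was lost without array 54 at 20% (adjusted p = 0.053). Members past no threshold included Cyp4a12a at -1.69, Ces3b at -0.96 and Cyp2d9 at -0.57.

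**Figure D1:**
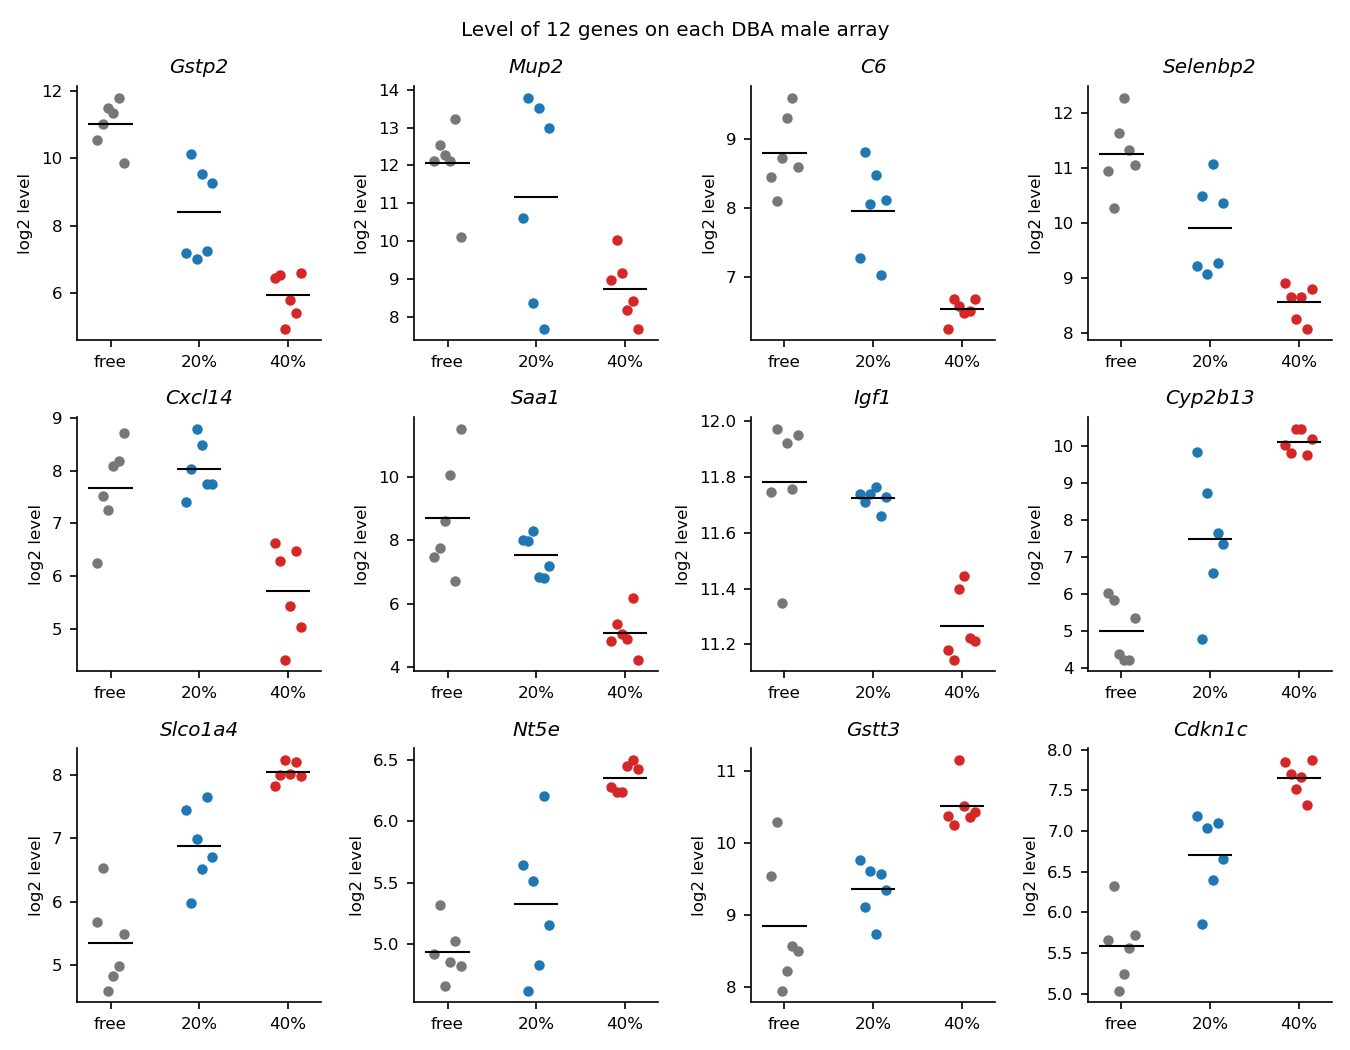
Log2 level of 12 genes on the 18 DBA2/J male arrays by diet (free, ad libitum), 1 point per array, with the group mean as a line. Gstp2, C6, Selenbp2, Cxcl14, Saa1 and Igf1 at 40% restriction lie below all 20% arrays, and Slco1a4, Nt5e, Gstt3 and Cdkn1c lie above them. Of these genes all but Igf1 were picked for lack of overlap.

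Female-biased genes were higher at 40% restriction. Of 19 tested members 9 rose and none fell, with a median log2 change of 0.78, against 9.19% of all tested genes that rose. This list too was chosen with earlier results of these data known. The 9 were Cyp2b13, Slc22a26, Cyp2b10, Gstt3, Rtn4, Cux2, Ces2e, Hao2 and Fmo4. Hao2 lay at 4.13 to 5.09 at 20%, near background, and 4.76 to 5.80 at 40%, so it had little room to fall. The count was 4 without array 54 or array 56 at 20%, 5 without array 59, 5 with array brightness as a covariate, 4 with no detection filter and 3 among the probes detected on all 12 arrays.

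Cyp2b13, a cytochrome P450 of female liver, lay at 4.77 to 9.83 (median 7.50) on the 20% arrays and 9.74 to 10.47 (median 10.10) on the 40% arrays. The 40% arrays were tightly grouped while those at 20% spread widely, and array 53, the highest at 20%, reached the lowest values at 40%. The log2 change was 2.64 ± 0.65, a 6.22-fold higher level (adjusted p = 0.00484). Cyp2b10, the family member induced through the receptor CAR, changed by 1.55 ± 0.51 (adjusted p = 0.0357), a call lost without array 54, 55, 56, 59, 110, 111 or 129, with an adjusted p of up to 0.127. Probes of this family may not separate its members. Gstt3, a theta-class glutathione S-transferase, lay at 8.74 to 9.76 (median 9.46) and 10.26 to 11.16 (median 10.40) without overlap and changed by 1.16 ± 0.29 (adjusted p = 0.0061). Rtn4, which shapes the endoplasmic reticulum, changed by 0.95 ± 0.20 (adjusted p = 9.86e-04).

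Slc22a26, an organic anion transporter, changed by 1.71 ± 0.46 (adjusted p = 0.0101) and is named because its start region was the only one among these 9 genes to hold the letters TTCNNNGAA, the consensus that STAT5 proteins bind. The start regions of the strongest rise and fall of the 2 lists are shown beside it, from 250 bases before to 50 after the RefSeq start (GRCm38.p6), with any match in capitals. They lie at chr19:7802618-7802917, minus strand; chr7:26061245-26061544, plus strand; and chr19:4042172-4042471, minus strand.
Slc22a26: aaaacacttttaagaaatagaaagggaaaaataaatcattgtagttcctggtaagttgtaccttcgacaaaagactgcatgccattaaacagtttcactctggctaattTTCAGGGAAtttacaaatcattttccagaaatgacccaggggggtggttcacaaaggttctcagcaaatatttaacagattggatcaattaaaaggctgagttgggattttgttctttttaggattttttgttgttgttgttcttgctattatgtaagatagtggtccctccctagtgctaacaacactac
Cyp2b13: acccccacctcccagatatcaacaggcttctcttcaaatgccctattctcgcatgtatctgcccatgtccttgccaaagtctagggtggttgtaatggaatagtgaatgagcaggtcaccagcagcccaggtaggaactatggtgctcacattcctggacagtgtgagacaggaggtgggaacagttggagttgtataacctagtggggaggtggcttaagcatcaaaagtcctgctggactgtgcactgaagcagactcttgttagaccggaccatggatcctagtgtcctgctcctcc
Gstp2: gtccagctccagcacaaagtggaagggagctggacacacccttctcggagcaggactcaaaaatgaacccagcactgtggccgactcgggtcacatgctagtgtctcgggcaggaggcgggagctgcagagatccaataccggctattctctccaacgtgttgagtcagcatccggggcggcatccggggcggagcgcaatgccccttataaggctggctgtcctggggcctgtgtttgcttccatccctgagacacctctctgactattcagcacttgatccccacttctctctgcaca
Read on both strands, this palindrome occurred in 8.30% of all 32851 start regions in the table and in 8.13% of the 5291 tested genes that had one. It occurred in none of the 10 male-biased genes that fell and had a start region, and in 1 of the 9 female-biased genes that rose. The match in Slc22a26 begins 141 bases before the start.

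The same arrays that were high for male-biased genes at 20% restriction were low for female-biased ones. The mean level of the 23 male-biased members was 9.26 to 9.90 on arrays 54, 56 and 59 and 7.83 to 8.28 on arrays 53, 55 and 57. All 6 arrays at 40% lay between 7.64 and 8.04. The female-biased members averaged 6.55 to 8.10 at 20% and 8.11 to 8.42 at 40%. Array 57 had the highest female-biased mean of the 20% group, and over all tested probes it correlated at 0.978 on average with the 40% arrays and at 0.970 with the other 20% arrays. Without array 57, 1374 probes passed, 13 male-biased genes fell and 10 female-biased ones rose. Without arrays 55 and 57 together, a setting added after the values were seen, 1352 probes passed. Array 55 carried another difference, in macrophage genes, described with the inflammatory genes.

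**Figure D2:**
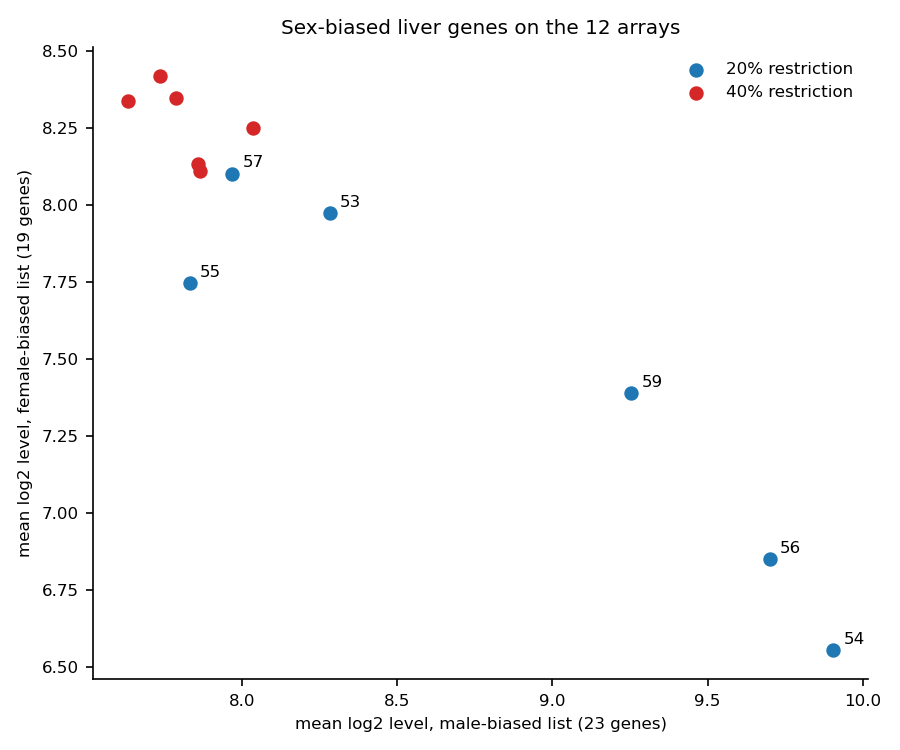
Mean log2 level of the male-biased list (x axis) against that of the female-biased list (y axis) on each of the 12 restricted DBA2/J male arrays, with numbers for the 20% arrays. The 40% arrays form 1 group at the upper left and the 20% arrays stretch from near it to array 54 at the lower right.

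Igf1, the hormone gene that growth hormone drives in liver, was lower at 40% restriction. It lay at 11.66 to 11.77 (median 11.73) at 20% and 11.14 to 11.45 (median 11.22) at 40%, and the groups did not overlap. The log2 change was -0.46 ± 0.11, a 1.37-fold lower level (adjusted p = 0.0038), and it stayed past the threshold in all 12 fits that left out 1 array. Cux2, a transcription factor of female liver that represses male-biased genes, changed by 0.88 ± 0.31 (adjusted p = 0.0467). Its level ran from 4.25 to 7.28 at 20% and the call was lost in 9 of those 12 fits. These 2 were the only calls among 16 tested members of a growth hormone and IGF list. That is 6.25% in each direction, beside 9.19% of all genes that rose and 4.06% that fell.

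Acute phase genes were lower where they changed. Of 23 tested members 6 fell (Saa1, Saa2, Saa4, Orm1, Orm2 and Hp), or 26.1% against 4.06% of all genes, and none rose. The list median was -0.14. Without array 55 at 20% 2 members fell, without array 57 4 fell, and with array brightness as a covariate none did. In the authors' z-scores 6 fell.

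Saa1, an apolipoprotein of the acute phase, lay at 6.82 to 8.30 (median 7.59) at 20% and 4.24 to 6.17 (median 4.97) at 40% restriction. No array of the groups overlapped, and 3 of the 6 arrays at 40% detected it. The change was -2.44 ± 0.77 (adjusted p = 0.027), lost in 5 of the 12 fits without 1 array, with an adjusted p of up to 0.0557. Saa2, a near-identical gene, changed by -2.09 ± 0.72 (adjusted p = 0.0455), detected on 2 of 6 arrays at 40%. The Saa2 call was lost in 10 of those 12 fits (adjusted p up to 0.0941) and with array brightness as a covariate (adjusted p = 0.112). Hp, haptoglobin, which binds free haemoglobin, lay at 14.32 to 14.63 (median 14.48) and 13.56 to 14.16 (median 13.89) without overlap and changed by -0.58 ± 0.17 (adjusted p = 0.0196), a call lost without array 110 (adjusted p = 0.0651). Fga, Fgg, Hpx and Serpina3n, other acute phase genes, changed by 0.09, -0.14, -0.06 and 0.21, none past the threshold.

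A few complement genes fell. Of 34 complement and coagulation genes 4 fell (C6, C9, C8b and Serping1), or 11.8% against 4.06% of all genes, and none rose. The falls numbered 7 without array 57 at 20%, 6 without array 55, 6 with the 12 arrays alone in the fit, 3 with array brightness as a covariate and 12 in the authors' z-scores. C6, a component of the membrane attack complex, lay at 7.02 to 8.81 (median 8.08) at 20% and 6.24 to 6.67 (median 6.54) at 40% restriction. Its groups were apart on both of its probes, with changes of -1.44 ± 0.28 and -1.40 ± 0.30 (adjusted p = 4.01e-04 for the first). C9 changed by -1.05 ± 0.24 (adjusted p = 0.00248) and Serping1, the C1 inhibitor, by -0.71 ± 0.18 (adjusted p = 0.00567). C6 and C8b were also members of the male-biased list.

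Interferon and antigen presentation genes showed 2 falls each, of 22 and 17 tested (9.09% and 11.8%, against 4.06% of all genes). With the 12 arrays alone in the fit each showed 6. The interferon count was 4 without array 57 and 1 with array brightness as a covariate. Oas1g, which makes oligoadenylates on sensing double-stranded RNA, changed by -0.97 ± 0.34 (adjusted p = 0.0455; lost in 8 of the 12 fits without 1 array) and Ifi27 by -0.88 ± 0.22 (adjusted p = 0.00453). H2-Q7, a non-classical MHC class I gene, changed by -0.74 ± 0.19 (adjusted p = 0.00576). Cxcl14, a chemokine, lay at 7.40 to 8.80 (median 7.89) and 4.41 to 6.63 (median 5.86). Its groups did not overlap, and the change was -2.33 ± 0.38, a 5.02-fold lower level (adjusted p = 1.12e-04). Ly6e, a membrane protein of the interferon response, fell from a mean of 9.23 to 8.23 without overlap (adjusted p = 0.00926).

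Macrophage genes stood apart on array 55 of the 20% group. The 14 tested Kupffer cell and macrophage markers averaged 9.41 there and 7.09 to 7.43 on the other 20% arrays, against 6.97 to 7.34 at 40%. Of 20 such markers on the arrays, Ccr2, Cd5l, Cx3cr1, Fcgr1 and Itgam were detected on none of the 12. Clec4f, a lectin of Kupffer cells, was the 1 marker past the threshold, at 7.81 to 9.59 (median 7.88) and 6.96 to 7.73 (median 7.30), a change of -0.83 ± 0.26 (adjusted p = 0.027). That call was lost without array 55 and without 3 of the 40% arrays (109, 110 or 129), with an adjusted p of up to 0.144. Neutrophil markers averaged 7.09 to 7.55 at 20% and 5.75 to 7.35 at 40%, none of the 7 tested past the threshold. The part of these cells in the acute phase and complement values was not tested. In bulk liver, fewer cells of a type and less RNA per cell cannot be told apart.

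Genes of red blood cell precursors were lower at 40% restriction. Of 4 tested erythroid genes 3 fell, against 4.06% of all genes, with a median log2 change of -1.21. Alas2, the erythroid enzyme that starts haem synthesis, changed by -1.64 ± 0.30 (adjusted p = 3.07e-04). The globin probes Hbb-b2 and Hba-a1 changed by -1.22 ± 0.23 (adjusted p = 3.68e-04) and -1.20 ± 0.35 (adjusted p = 0.0167), and near-identical globin copies may share them. The list averaged 7.74 to 9.09 at 20% and 6.87 to 7.78 at 40%, with the highest 40% array just above the lowest 20% array. Fech, which inserts the iron of haem in all cell types, changed by -0.17 and did not pass. The 3 falls stood without array 55 and without array 57 at 20%, and 2 stood with array brightness as a covariate.

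Other genes that rose most had several roles. Slco1a4, which carries bile acids and organic anions into hepatocytes, lay at 5.97 to 7.65 (median 6.85) at 20% and 7.82 to 8.24 (median 8.01) at 40%, a change of 1.17 ± 0.27 (adjusted p = 0.00299). Nt5e, the enzyme CD73 that makes adenosine from AMP, lay at 4.62 to 6.20 (median 5.33) and 6.24 to 6.50 (median 6.35), a change of 1.03 ± 0.19 (adjusted p = 3.68e-04). Neither gene's groups overlapped. Cdkn1c, a cyclin-dependent kinase inhibitor, lay at 5.86 to 7.19 (median 6.85) and 7.32 to 7.88 (median 7.68), a change of 0.95 ± 0.22 (adjusted p = 0.00275). The 7 tested cell cycle genes showed no call in either direction.

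Smaller rises without overlap came from Pja2, Cldn1, Ddah1, Slc25a16, Kdm1b, Pdcd10 and Zfp97, between 0.73 and 0.90 on the log2 scale. At 20% Pdcd10 lay at 4.76 to 5.14 and Zfp97 at 4.43 to 5.24, near background, and neither was detected on all 12 arrays. Pja2 is a ubiquitin ligase that acts on protein kinase A, Cldn1 a claudin of tight junctions and Kdm1b a histone demethylase. The call of Ddah1, which breaks down methylated arginine, was lost in 9 of the 12 fits without 1 array, and those of the other 6 in none. Among the falls without overlap were Ugt3a1, a glycosyltransferase, at -1.29 ± 0.32 (adjusted p = 0.00445), Tmem150a at -0.80 ± 0.17 (adjusted p = 0.00126) and Lgals3bp, a galectin-binding protein, at -0.79 ± 0.25 (adjusted p = 0.0281). The Lgals3bp call was lost without array 59 or 129 (adjusted p up to 0.0732).

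**Figure D3:**
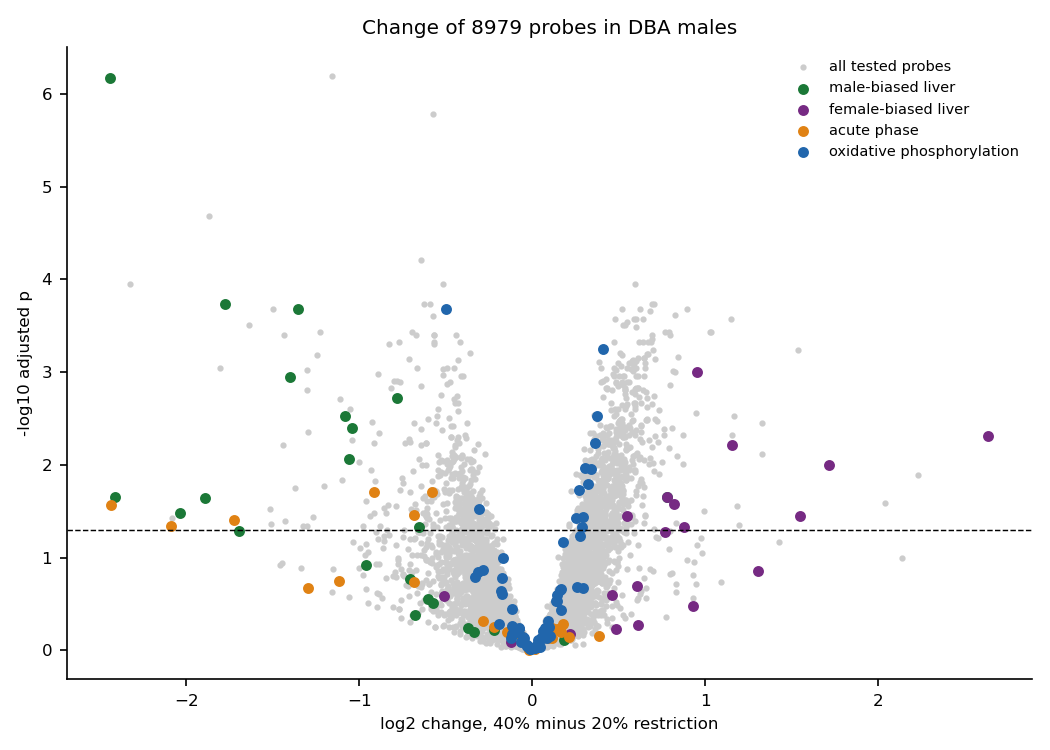
Log2 change (40% minus 20% restriction, x axis) against -log10 of the adjusted p (y axis) for the 8979 tested probes in grey, with 4 gene lists in colour and the 0.05 threshold as a dashed line. Male-biased and acute phase genes reach the far left, Cyp2b13 the far right, and oxidative phosphorylation genes lie close to 0.

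Some genes of mitochondrial respiration rose by small steps, with the opposite balance in the authors' z-scores. Of 66 oxidative phosphorylation genes 10 rose (15.2%, against 9.19% of all genes) and 2 fell. The median log2 change was 0.03, as over all genes, 37 of the 66 changes were positive, and single changes ran from -0.50 to 0.41. The rises numbered 6 without arrays 55 and 57 and 6 with the 12 arrays alone in the fit. Cox5a, a subunit of cytochrome oxidase, changed by 0.41 ± 0.08 (adjusted p = 5.70e-04) and Ndufb8, of complex I, by 0.37 ± 0.09 (adjusted p = 0.00299). Atp5g2, a subunit of ATP synthase, went the other way, by -0.50 ± 0.09 (adjusted p = 2.11e-04). In the z-scores 1 rose and 8 fell. Of 17 TCA cycle genes Dld and Pdha1 rose (11.8%, near the 9.19% of all genes), by 0.62 ± 0.13 and 0.58 ± 0.15.

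Of 24 endoplasmic reticulum stress genes 5 rose (20.8%, against 9.19% of all genes) and 1 fell. With array brightness as a covariate 2 rose, and with the 12 arrays alone in the fit 1 did. Hsp90b1, a chaperone of the reticulum, changed by 0.58 ± 0.16 (adjusted p = 0.0099) and Dnajc3 by 0.49 ± 0.14 (adjusted p = 0.0126). Both of these calls were lost without array 129 at 40% (adjusted p = 0.0631 and 0.0772). Pdia3, P4hb and Ero1b, which form disulphide bonds, also rose, and the Pdia3 call was lost in 4 of the 12 fits without 1 array. Asns, asparagine synthetase, changed by -1.43 ± 0.48 (adjusted p = 0.0402), with the highest value of the 12 arrays, 8.33, on array 55. Its call was lost in 7 of the 12 fits without 1 array, that array among them.

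Of 30 tested genes of the urea cycle and amino acid breakdown 4 rose (13.3%, against 9.19% of all genes) and 1 fell. The rises numbered 2 without array 55 at 20%, 6 without array 57, 2 with array brightness as a covariate and 9 with the 12 arrays alone in the fit. Glud1, glutamate dehydrogenase, changed by 0.47 ± 0.13, Mat1a, which makes S-adenosylmethionine, by 0.43 ± 0.14, and Gpt, alanine aminotransferase of the gluconeogenesis list, by 0.55 ± 0.14 (adjusted p = 0.0113, 0.0276 and 0.00662). The Mat1a call was lost without array 54, 56, 59, 110 or 129 (adjusted p up to 0.0786). Mat1a had the opposite sign in the authors' z-scores (-0.34). Pck1, the gluconeogenic enzyme that fasting induces, lay at 6.64 to 7.61 (median 7.51) and 7.10 to 8.68 (median 7.81) and did not pass (0.43 ± 0.21, adjusted p = 0.173), though it did in the authors' z-scores (adjusted p = 0.0181). Cyp7a1, the rate-limiting enzyme of bile acid synthesis, lay at 8.02 to 10.88 (median 10.09) and 9.74 to 11.42 (median 10.90), 0.93 ± 0.56 (adjusted p = 0.271). Their groups overlapped.

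Lipid genes gave few calls between the 2 levels, over a range of changes that included large ones. No call was made among 16 lipogenesis genes (log2 changes of -0.96 to 0.34), 20 lipoprotein genes (-0.84 to 0.98) or 2 ketogenesis genes. Fatty acid oxidation gave 1 rise (Etfa) and 1 fall (Etfb) of 25 genes, 4% each, beside 9.19% and 4.06% of all genes. Without array 55, and likewise without array 57, none rose and 3 fell, and without both 4 fell. The call of Etfa was lost in 9 and that of Etfb in 6 of the 12 fits without 1 array, and Etfa had the opposite sign in the authors' z-scores (-0.13). Of 14 PPAR alpha targets Creb3l3, a transcription factor of fasting, fell by 0.57 on the log2 scale (adjusted p = 0.047; lost in 9 of the 12 fits without 1 array), and the list ran from -1.69 to 1.31 with a median of -0.27. Fgf21, a hormone of fasting liver, lay at 5.07 to 7.52 (median 6.34) and 4.47 to 7.58 (median 4.82) and did not pass (-0.97 ± 0.46, adjusted p = 0.152). Array 111 of the 40% group held its highest value, 7.58, and those of Pdk4 and Creb3l3 in that group. Without array 111 the Fgf21 change was -1.43 and passed (adjusted p = 0.0279). None of 25 proteasome genes was called, nor of 15 heat shock genes or 16 glycolysis genes.

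Several lists held few calls, beside 9.19% of all tested genes that rose and 4.06% that fell. Of 51 ribosomal protein genes 3 (5.88%) fell, Rpl13a, Rps3 and Rpl29, and 20 fell in the authors' z-scores. Of 17 metal handling genes 2 rose (11.8%), Fth1, the ferritin heavy chain, and Slc39a8, a metal importer. Their changes were 0.39 ± 0.08 and 0.47 ± 0.15 (adjusted p = 7.79e-04 and 0.0275), and Fth1 had the opposite sign in the z-scores (-0.19). The autophagy and lysosome list had 2 rises (Lamp2 and Atg5) and 2 falls among 26 genes, and none of either with array brightness as a covariate. Nr1d2, a repressor of the circadian clock, was the 1 rise among 18 clock genes, by 0.52 ± 0.18 (adjusted p = 0.0495). Dhcr7, which makes cholesterol from its last precursor, was the 1 fall among 19 cholesterol genes, by -0.69 ± 0.23 (adjusted p = 0.0332). The calls of Slc39a8, Atg5, Nr1d2, Dhcr7, Rps3 and Rpl29 were each lost in 5 to 9 of the 12 fits without 1 array.

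**Figure D4:**
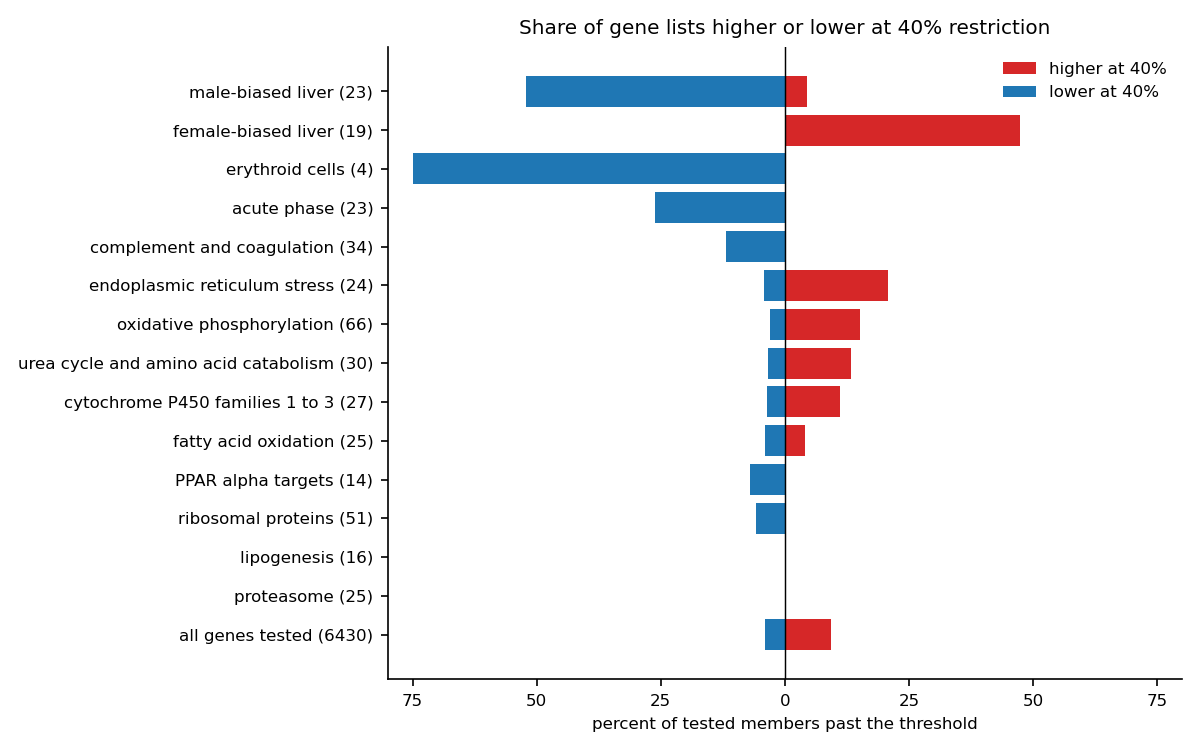
Percent of the tested members of 14 gene lists (number in brackets) and of all 6430 tested genes that were higher (right) or lower (left) at 40% restriction past an adjusted p of 0.05. The male-biased list reaches 52.2% lower and the female-biased list 47.4% higher, against 4.06% and 9.19% of all genes. The lists were chosen with earlier results of these data known.

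Whether the step from 20% to 40% differed between sexes was tested as an interaction. In DBA2/J females 3 of 8979 probes (0.0334%) passed between the same 2 diets. The difference between the male and the female change passed for 360 probes (4.01%), 288 of which also passed in males. From 20% to 40%, mean raw intensity rose in males (153.5 to 190.1) and fell in females (226.4 to 190.9). The part of array brightness in this difference was not tested. Leaving out 1 male array gave 121 to 620 probes, with the fewest without array 129 at 40% and the most without array 57 at 20%. Probes entered by their detection in males, and 15 of the 360 were detected on fewer than 6 of the 12 female arrays, which leaves little room for a fall. Among the male-biased genes 4 differed from the male change, and 3 of these (C4a, Nat8 and Susd4) were such dim probes in females, while the other, Gstp2, lay near background there. No sex difference can be read from that list.

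Gstp2 was detected on 8 of 12 female arrays, with a mean of 4.91 to 5.02 on the 3 diets, close to the 4.92 of probes detected on 6 of the 12 male arrays. Its fitted difference of -2.53 ± 0.45 (adjusted p = 0.00201) is therefore limited by a level from which it could hardly fall in females. Fgf21 changed by 1.56 ± 0.46 and Pdk4, the kinase that holds back pyruvate oxidation, by 1.86 ± 0.54 in the females. Their differences were -2.53 ± 0.65 (adjusted p = 0.0202) and -2.56 ± 0.76 (adjusted p = 0.0404), while neither change passed in males with all arrays. Both genes were detected on at least 11 of the 12 female arrays. PPAR alpha targets had a median change of 0.55 in females, and 5 of the 14 differed, each lower in males. Over all 6430 genes 265 differed. Dio1, which activates thyroid hormone, differed by -2.23 ± 0.65 (adjusted p = 0.0358). It changed by 0.90 in the females and by -1.15 in C57BL/6J males. Its fall in DBA2/J males passed, a call lost in 8 of the 12 fits without 1 array (adjusted p up to 0.156). That call was also lost with array brightness as a covariate (adjusted p = 0.161).

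On the positive side Cyp2b10 differed by 2.48 ± 0.72 (adjusted p = 0.036), from a change of -0.93 in females. Cyp3a13, a drug-metabolizing P450, differed by 1.22 ± 0.29 (adjusted p = 0.0118). Ces2e, a carboxylesterase whose rise in males was 0.82 ± 0.26 (adjusted p = 0.0265; lost without array 53, 54 or 56 and with array brightness as a covariate, adjusted p up to 0.121), differed by 1.43 ± 0.36 (adjusted p = 0.0186) and Phf11d by 2.17 ± 0.62 (adjusted p = 0.0342). The Phf11d change did not pass in males with all arrays, and in females it was -1.24. Cyp2b13 differed by 2.46 ± 0.92 and did not pass (adjusted p = 0.104).

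Against C57BL/6J males the change in DBA2/J males differed for 1 probe (0.0111%), with 640 at an unadjusted p under 0.05. In the C57BL/6J males 72 probes (0.802%) passed between the 2 diets, 34 higher and 38 lower. The probe that differed was Wfdc15b, of the WAP domain family, at 5.05 to 6.28 (median 6.12) and 4.36 to 5.39 (median 4.70) in DBA2/J males. Array 57 was the only 20% array within the range of the 40% group, where 1 of 6 arrays detected it. Its change was -1.16 ± 0.15 (adjusted p = 6.38e-07) in DBA2/J males. In C57BL/6J males it was detected on none of the 12 arrays, with means of 4.30 and 4.29, so it could not fall there and the fitted difference of -1.15 ± 0.21 (adjusted p = 0.00732) does not compare 2 measured changes. Mup2 changed by -4.33 ± 0.74 and Cyp2b13 by 3.80 ± 0.65 in C57BL/6J males. There 5 of the 23 male-biased genes fell, against 29 of all 6430 genes. A difference that did not pass does not show that the strains responded alike.

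**Figure D5:**
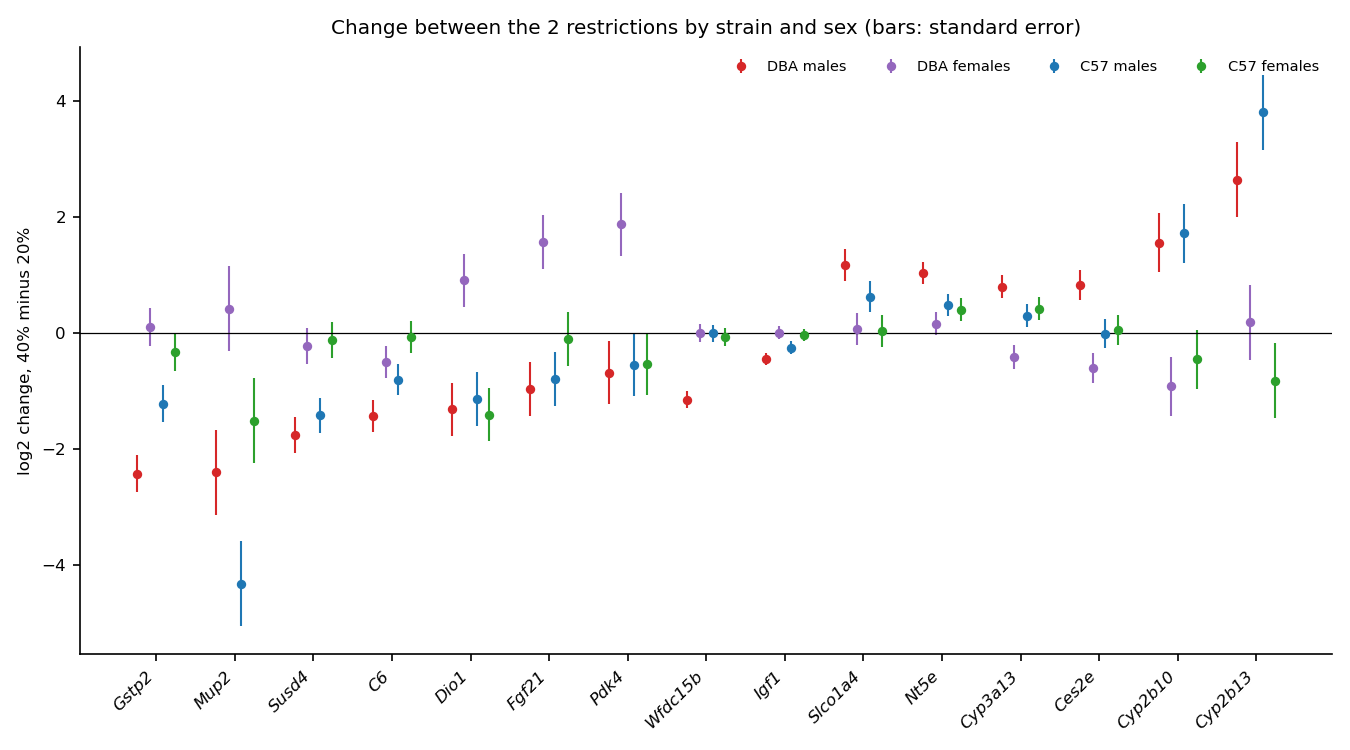
Log2 change from 20% to 40% restriction of 15 genes in the 4 strain and sex groups, with the standard error as bars. Fgf21 and Pdk4 in DBA2/J males lie below the DBA2/J females, Gstp2 and Wfdc15b are near background in 1 or more of the other groups, and Mup2 and Cyp2b13 in both male groups lie on the same side of 0.

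Levels in the DBA2/J males fed ad libitum place the 2 restrictions. Between 20% restriction and free feeding 3881 probes (43.2%) passed and between 40% and free feeding 4397 (49%), comparisons that share the free-feeding arrays. Gstp2 lay at 9.86 to 11.79 (median 11.16) in freely fed males, a change of -2.61 ± 0.32 at 20% and -5.04 ± 0.32 at 40% (adjusted p = 1.37e-09 and 7.26e-20). Mup2 lay at 10.12 to 13.23 (median 12.20), and changed by -0.90 ± 0.74 at 20% (adjusted p = 0.329) and -3.31 ± 0.74 at 40% (adjusted p = 1.63e-04). Cyp2b13 averaged 4.99 when freely fed, 7.48 at 20% and 10.12 at 40%. The 20% mean of Gstp2, Selenbp2, C6, Slco1a4, Nt5e, Cdkn1c, Igf1 and Pck1 lay between the other 2 means.

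Igf1 changed by -0.06 ± 0.11 at 20% (adjusted p = 0.688) and -0.52 ± 0.11 at 40% (adjusted p = 8.60e-05) from a freely fed range of 11.35 to 11.97 (median 11.84). Pck1 averaged 5.35 when freely fed and 7.38 and 7.81 at 20% and 40% restriction. In other genes the 20% mean lay outside the other 2. Cxcl14 averaged 7.67 when freely fed, 8.04 at 20% and 5.71 at 40%. Cldn1 averaged 7.66, 5.86 and 6.73, so its 40% mean lay nearer to free feeding. Pdcd10 and Hsp90b1 likewise had their lowest mean at 20% restriction, at 4.98 and 9.70.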

How the data were processed

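Liver RNA of 72 mice was hybridised to Illumina bead arrays, each mouse to its own, and read with GenomeStudio 2011.1 per the submitters' processing notes. The authors deposited the raw intensity of every probe on every array, without background correction or normalization. A detection p-value stands beside each intensity, per the file headers. Columns are named by group code and array number, which set each array's group and carry no replicate number. The second table deposited by the authors holds a score per probe and sample, whose values equal the z-score of log10 intensity within an array for 72 of 72 columns (tolerance 1e-08). It was used as an alternative.

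Intensities were background-corrected from the detection p-values with an offset of 16, quantile-normalized and log2-transformed (neqc, limma 3.58.1, R 4.3.3) over all 72 arrays. A single limma fit with 12 group means (60 residual degrees of freedom) gave moderated two-sided tests, adjusted by Benjamini-Hochberg over 8979 probes. An adjusted p of a gene is from this fit unless another setting is named beside it, and the threshold was 0.05. The number of arrays limits the precision. On data simulated for the 40% against 20% comparison over 8979 probes, 94% of probes raised and 98% of those lowered by 1 on the log2 scale were called, against 62% and 54% for 0.5, with 6 false calls among 160. The simulated noise was independent between probes, with 1 spread per probe, equal in both groups. It held neither the brightness difference nor the split among the 20% arrays, so these shares may not hold for the real arrays.

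The detection rule used the DBA2/J male arrays alone, so probes may be dim in the other groups. Detection on 6 arrays could also come from 1 diet alone, so a probe may be near background at the other. Probes took their symbols from the series' probe table. A listed gene was represented by its brightest probe. Genes named by rule were the 12 largest rises and falls past the threshold without overlap of arrays. Added were up to 3 members of each list except cell type markers, and 1 in its minority direction. So were the 4 largest differences in each direction against DBA2/J females and C57BL/6J males, and Mup genes, Igf1, Fgf21, Cyp7a1 and Pck1. Other list members given, such as Alas2, the globins, Fech and Slc22a26, were not among the 86 named probes followed in every setting. The largest rises and falls, Mup genes, Igf1, Fgf21, Cyp7a1 and Pck1 are given by the probe with the largest absolute test statistic. The largest differences between groups are given by the probe with the largest difference past the threshold. Both choices favour larger values where a gene had several probes. Mup2 had 2 tested probes, of which 1 is given. Probes of Sgk3, Hnrnph1 and Mkks disagreed in direction past the threshold. The members and lists were chosen with earlier results of these data known. Slide and scan batches are not given in the sources used here and were not tested. Alternatives were the background correction, detection filters, array weights, trended and robust moderation, the 12 arrays alone, each array left out, the replicate block and the authors' scores. Added after the values were seen were array brightness as a covariate, 2 arrays left out together, and the authors' scores for the 12 samples alone.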

Additional observations from a re-analysis of the deposited data

Results flagged for a closer look

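A test for 1 value far from the other 5 of its group was made for 210 groups of named probes and gene lists, and 11 groups met it, where chance gives about 1 in 20. At 20% restriction, array 55 stood high for the Kupffer cell and macrophage list (9.41, the next array 7.43), Clec4f (9.59, next 7.94), Rps3, a ribosomal protein gene (10.31, next 10.06), and Gpt (11.06, next 10.78). Array 57 of that group stood high for Phf11d (8.62, next 6.74) and Ces2e (5.77, next 5.24), and array 53 stood low for Pck1 (6.64, next 7.43). At 40% restriction, array 111 stood high for 3 genes of fasting, Fgf21 (7.58, next 5.58), Pdk4 (9.61, next 6.70) and Creb3l3 (8.98, next 8.21). Gstt3 was high on array 110 of that group (11.16, next 10.51). Whether these mice differed in any recorded way was not tested.

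The change from 20% to 40% restriction differed between DBA2/J males and females, tested as an interaction in limma. Array brightness moved in opposite directions in males and females, and its part was not tested. It was more negative in males for Gstp2 (-2.53), Dio1 (-2.23), Fgf21 (-2.53) and Pdk4 (-2.56), and more positive for Cyp3a13 (1.22), Ces2e (1.43), Phf11d (2.17) and Cyp2b10 (2.48), on the log2 scale. In the males at 40%, array 111 was far above the others for Fgf21 and Pdk4, as given above. Against C57BL/6J males Wfdc15b differed by -1.15, but none of their 12 arrays detected it. Gstp2 was near background in the females, so it had little room to fall there.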

How the results depend on the processing

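Of 81 named probes past the threshold, 40 stayed past it in each of the 12 fits without 1 array. With array brightness as a covariate 48 did, and with the 12 arrays alone in the fit 66 did. All 86 named probes kept their direction in the fits without 1 array. Leaving out 1 array gave 622 to 1374 probes past the threshold (418 to 894 higher, 204 to 480 lower), 121 to 620 for the difference from DBA2/J females, 1 to 3 for that from C57BL/6J males, 7 to 14 male-biased genes lower and 4 to 10 female-biased genes higher. Array weights gave 2046 probes (1218 higher, 828 lower). Array brightness as a covariate gave 567 (385 higher, 182 lower) and 5 female-biased genes. The authors' z-scores gave 1883 (1562 higher), 1963 with the 12 samples alone (1555 higher), and 1297 for the difference from DBA2/J females. Without replicate 6 at 40%, whose strain entry disagrees with its title, they gave 967 probes, 177 of them lower. With no filter, 187 probes differed from DBA2/J females and 4 female-biased genes rose, and 3 rose among probes detected on all 12 arrays. Without background correction 2 probes differed from C57BL/6J males. The cause of these shifts was not tested, apart from fewer probes or arrays entering a fit.

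In the z-scores 5 named probes turned negative, with the same value in all samples, the 12 alone and the replicate block: Etfa -0.13, Col18a1 -0.02, Errfi1 -0.06, Fth1 -0.19 and Mat1a -0.34. Without replicate 6 the values were -0.06 for Etfa, -0.09 for Fth1 and -0.19 for Mat1a. Same-numbered samples correlated between -0.214 and 0.146 in their deviations, and none correlated best with its own number. Whether they shared anything beyond the number was not tested. The replicate block gave 1358 probes against 1963 without it. Probes near background are the least certain.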
